A study of Mus musculus with 9 samples.

Results

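The heavy chain variable gene repertoire of splenic B cells was measured as the share of each Ighv gene among all Ighv counts of a library. The members were all genes whose annotated symbol begins with Ighv, which gave 185 of the 54838 genes counted. They fell into 16 families and comprised 113 genes annotated as functional, 70 pseudogenes and 2 further entries typed IG_LV. At least 1 count was found for 153 of them in at least 1 library, and the 32 at 0 in every library were 27 pseudogenes, 3 functional genes and both IG_LV entries.

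The libraries came from B cells of 9 mice labelled C57BL/6N, 1 mouse a library, which the authors enriched from spleen with a pan-B negative selection kit. All mice carried Eµ-hTCL1, a human TCL1 transgene expressed in B cells from a heavy chain V promoter and the Eµ enhancer, which is a mouse model of chronic lymphocytic leukemia (CLL). The Eµ-PRMT5/TCL1 mice carried Eµ-hPRMT5 as well, human PRMT5 under elements of the same type, from 1 founder line (L25) that was crossed to Eµ-TCL1. PRMT5 is an enzyme that methylates arginines of histones and other proteins. Eµ-TCL1 mice gave 2 libraries at 3 months of age and 2 at 6 months, and Eµ-PRMT5/TCL1 mice gave 3 at 3 months and 2 at 6 months. Mice without the TCL1 transgene were not analysed here.

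A B cell builds its heavy chain by joining 1 V gene of the Igh locus to a D and a J segment, and its descendants keep that V gene. A mixed B cell population therefore transcribes many V genes, whereas the progeny of a single cell transcribes mostly 1. In Eµ-TCL1 mice a population of CD5+ B cells with the features of B-1 cells grows with age, and receptors built from Ighv11 and Ighv12 genes, which often bind phosphatidylcholine, are known from B-1 cells and from leukemias of this model. Counts per V gene hold no junction sequence, so cells of 1 clone and cells of several clones that use the same V gene look alike in these data. In bulk RNA, more cells of a type and more RNA per cell cannot be told apart either.

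The 4 V genes with more than 5% of the Ighv counts in a 6-month Eµ-PRMT5/TCL1 library are shown first, because the results turn on them and because counts are assigned through the bases in which V genes differ. The sequences are germline reference, the last 290 bases of the V exon in the GENCODE vM21 transcripts (build GRCm38), written 5′ to 3′, and capitals mark the bases that differ from the Ighv gene of most similar sequence. All lie on the minus strand of chromosome 12: Ighv9-3 at chr12:114140692-114141122 (15 differences from Ighv9-2, 94.8% identity), Ighv1-53 at chr12:115158403-115158835 (12 differences from Ighv1-72, 95.9%), Ighv1-74 at chr12:115802648-115803080 (12 differences from Ighv1-69, 95.9%) and Ighv5-2 at chr12:113578504-113578990 (38 differences from Ighv5-9, 86.9%).
Ighv9-3: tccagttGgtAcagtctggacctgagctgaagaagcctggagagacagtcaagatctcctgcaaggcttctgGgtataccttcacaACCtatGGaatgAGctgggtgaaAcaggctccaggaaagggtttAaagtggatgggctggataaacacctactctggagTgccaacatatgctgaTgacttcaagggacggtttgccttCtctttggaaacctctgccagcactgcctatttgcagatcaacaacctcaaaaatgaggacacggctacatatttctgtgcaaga
Ighv1-53: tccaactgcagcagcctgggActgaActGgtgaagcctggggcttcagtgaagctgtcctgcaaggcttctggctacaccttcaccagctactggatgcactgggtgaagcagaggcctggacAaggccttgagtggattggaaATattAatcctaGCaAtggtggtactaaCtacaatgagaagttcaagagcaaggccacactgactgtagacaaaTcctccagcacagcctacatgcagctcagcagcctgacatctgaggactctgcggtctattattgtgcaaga
Ighv1-74: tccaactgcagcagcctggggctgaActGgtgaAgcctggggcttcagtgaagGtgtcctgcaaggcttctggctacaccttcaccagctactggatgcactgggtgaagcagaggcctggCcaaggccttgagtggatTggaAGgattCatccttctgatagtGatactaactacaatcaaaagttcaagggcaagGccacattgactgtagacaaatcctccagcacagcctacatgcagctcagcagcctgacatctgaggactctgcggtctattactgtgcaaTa
Ighv5-2: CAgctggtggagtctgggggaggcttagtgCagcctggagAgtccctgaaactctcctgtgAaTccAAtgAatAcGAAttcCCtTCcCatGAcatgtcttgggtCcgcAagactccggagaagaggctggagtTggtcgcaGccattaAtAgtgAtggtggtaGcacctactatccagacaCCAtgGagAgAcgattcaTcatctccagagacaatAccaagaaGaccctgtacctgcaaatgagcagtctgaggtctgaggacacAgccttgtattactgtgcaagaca

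Ighv11-2 and Ighv12-3 are shown for the same reason, as the only members of the phosphatidylcholine-binding families that held more than 0.0704% of the Ighv counts in any library. Ighv11-2, at chr12:114048241-114048812, differs in only 4 of the 290 bases from Ighv11-1 (98.6% identity). Ighv12-3, at chr12:114366521-114366954, differs from its nearest gene, Ighv3-2, in 57 of 287 aligned columns (80.1%).
Ighv11-2: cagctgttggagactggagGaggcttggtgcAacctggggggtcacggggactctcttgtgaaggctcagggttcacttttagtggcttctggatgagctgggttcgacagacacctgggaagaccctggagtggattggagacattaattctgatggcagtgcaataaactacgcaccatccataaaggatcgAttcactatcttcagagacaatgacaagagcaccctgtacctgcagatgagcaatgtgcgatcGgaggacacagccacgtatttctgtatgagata
Ighv12-3: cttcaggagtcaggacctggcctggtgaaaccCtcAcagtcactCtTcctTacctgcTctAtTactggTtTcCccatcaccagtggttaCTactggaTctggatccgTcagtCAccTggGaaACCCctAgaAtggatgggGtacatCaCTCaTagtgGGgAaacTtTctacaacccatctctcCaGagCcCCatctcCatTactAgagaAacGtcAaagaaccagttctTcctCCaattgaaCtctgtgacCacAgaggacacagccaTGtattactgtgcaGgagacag

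Library totals lay between 12233230 and 17330246 counts, and every 6-month library was deeper than every 3-month library, so depth and age cannot be told apart. Cd79a and Cd79b, the signalling subunits of the B cell receptor, summed to 614 to 975 CPM (counts scaled to a library of 1000000) in the 7 other libraries and to 997 and 1486 in the 6-month Eµ-PRMT5/TCL1 libraries. T cell markers were present as well, at 489 to 746 CPM against 255 and 214. Counts of 4 Y-linked genes were 7863 to 10434 in the 6-month Eµ-TCL1 libraries and in the first 3-month Eµ-PRMT5/TCL1 library. They were 1 to 3 in the other 6 libraries. Sex therefore cannot be told apart from age within Eµ-TCL1, nor from genotype at 6 months.

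The repertoire was carried by a single V gene in each 6-month Eµ-PRMT5/TCL1 library and by a different one in each mouse. Ighv9-3 took 77.1% of the Ighv counts in replicate 1 (95% Wilson interval 76.8 to 77.4, 94389 Ighv counts), and Ighv1-74 took 90.1% in replicate 2 (89.7 to 90.4, 37068 Ighv counts). In the 7 other libraries, with 10392 to 18733 Ighv counts, the largest gene held between 5.73% and 27.5%, and the 2 groups of values did not overlap. The intervals cover counting error only, not the differences between mice.

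The 7 other libraries were led by 6 different genes. In Eµ-TCL1 mice at 3 months the largest gene was Ighv1-74 with 27.5% (26.7 to 28.3) in replicate 1 and Ighv1-26 with 9.44% (9.03 to 9.87) in replicate 2. At 6 months Ighv1-55 led replicate 1 with 12.9% (12.4 to 13.4) and Ighv11-2 led replicate 2 with 21.7% (21.0 to 22.5). In Eµ-PRMT5/TCL1 mice at 3 months the leaders were Ighv7-3 with 5.73% (5.32 to 6.17), Ighv1-55 with 13.6% (13.1 to 14.1) and Ighv1-75 with 8.40% (7.88 to 8.95) in replicates 1 to 3. No gene led both libraries of an Eµ-TCL1 group or more than 1 library of an Eµ-PRMT5/TCL1 group. Ighv1-74 led a 3-month Eµ-TCL1 mouse and a 6-month Eµ-PRMT5/TCL1 mouse. With counts divided by exonic length the same gene led each of the 9 libraries, at 77.4% and 90.2% in the 6-month Eµ-PRMT5/TCL1 libraries and 5.86 to 28.5% in the others.

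**Figure D1:**
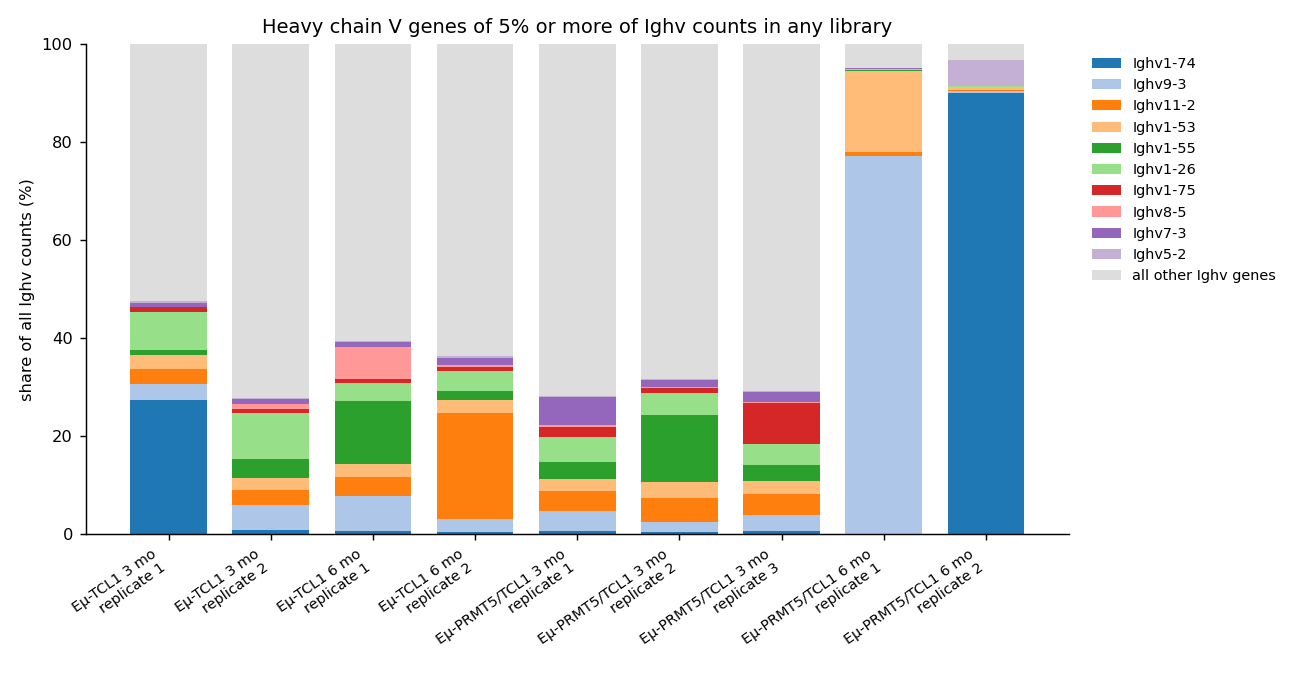
Share of the Ighv counts (percent, 1 bar per library) held by single Ighv genes. Genes of at least 5% in any library are drawn singly, and all other Ighv genes are summed. The largest gene is Ighv9-3 at 77.1% and Ighv1-74 at 90.1% in the 6-month Eµ-PRMT5/TCL1 libraries and 5.73 to 27.5% in the 7 others.

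A second V gene also stood out in both 6-month Eµ-PRMT5/TCL1 libraries. Ighv1-53 held 16.6% of the Ighv counts in replicate 1 and Ighv5-2 held 5.40% in replicate 2, whereas the third gene held 0.853% (Ighv11-2) and 0.515% (Ighv1-53). In the 7 other libraries the second gene held 4.23 to 7.68% and the third 3.27 to 6.52%. The widest step from the second to the third gene among them was from 7.68% to 3.27%, in the first 3-month Eµ-TCL1 mouse. The 3 largest genes together made 94.5% and 96.0% of the counts in the 6-month Eµ-PRMT5/TCL1 libraries and 15.7 to 38.4% in the others.

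The depth of the list showed the same split. To reach 50% of the Ighv counts, 1 gene sufficed in each 6-month Eµ-PRMT5/TCL1 library and 8 to 16 genes were needed in the others. To reach 90%, 2 genes and 1 gene sufficed, against 52 to 59. Only 2 genes held more than 1% in either 6-month Eµ-PRMT5/TCL1 library, against 23 to 31 in the others.

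**Figure D2:**
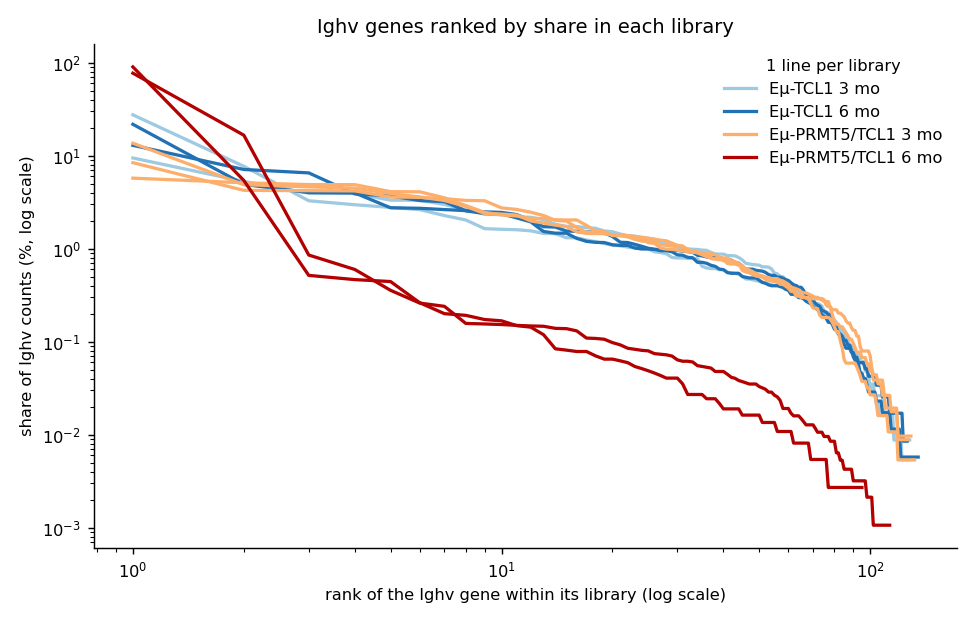
Share of the Ighv counts (percent, log axis) of each Ighv gene against its rank within the library (log axis), 1 line per library. In the 6-month Eµ-PRMT5/TCL1 libraries the curve drops from the second gene (16.6% and 5.40%) to the third (0.853% and 0.515%), while in the other 7 the third gene still held 3.27 to 6.52%.

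Diversity was summarised as the effective number of genes, the exponential of the Shannon entropy, which is the number of equally used genes that would be as diverse. It was 34.9 and 58.5 in Eµ-TCL1 mice at 3 months, 50.1 and 41.7 at 6 months, 61.1, 49.9 and 58.3 in Eµ-PRMT5/TCL1 mice at 3 months, and 2.49 and 1.74 at 6 months. Both 6-month Eµ-PRMT5/TCL1 libraries lay far below the 7 others, and the Eµ-TCL1 values at 6 months lay between the values at 3 months. The means were 2.11 ± 0.529 (SD, n = 2) and 50.7 ± 9.64 (n = 7) (two-sided exact permutation p = 0.0556). This is the smallest p that the 36 splits of 9 libraries into 2 and 7 allow, so 0.05 could not be reached.

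Over both genotypes, the effective number was 24.0 ± 25.5 (SD, n = 4) at 6 months and 52.6 ± 10.7 (n = 5) at 3 months, and the difference did not pass the threshold (two-sided exact permutation p = 0.0794, smallest possible 0.0159). Within Eµ-TCL1 the means were 45.9 ± 5.94 at 6 months and 46.7 ± 16.7 at 3 months (SD, n = 2 each), and within Eµ-PRMT5/TCL1 2.11 ± 0.529 (n = 2) and 56.4 ± 5.84 (n = 3). Comparisons of 2 against 2 and 2 against 3 libraries cannot give a two-sided permutation p below 0.333 and 0.2, so no test is given for them. The inverse Simpson index, which weights common genes more, was 1.61 and 1.23 in the 6-month Eµ-PRMT5/TCL1 libraries and 11.1 to 41.8 in the others.

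Fewer V genes were seen at equal depth. At 10392 Ighv counts, the depth of the shallowest repertoire, 81.8 and 70.2 genes would be detected on average in the 6-month Eµ-PRMT5/TCL1 libraries and 123 to 129 in the others. At equal counts of 1684 outside the genes of at least 5%, the numbers were 94.8 and 93, against 98.5 to 106, a much smaller gap. At full depth 113 and 95 genes were detected, and up to 135 in each of the others. Pseudogenes, which cannot encode a heavy chain, made 0.0540% of the Ighv counts in both 6-month Eµ-PRMT5/TCL1 libraries and 0.454 to 1.17% in the others.

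The total over all V genes was highest in the same mice. Summed Ighv counts made 5725 and 2507 CPM of the 6-month Eµ-PRMT5/TCL1 libraries, compared with 758 to 1382 CPM in the other 7, and the ranges did not overlap. By age alone the means were 2500 ± 2285 CPM (SD, n = 4) and 1077 ± 272 CPM (n = 5), which did not differ beyond the spread (two-sided exact permutation p = 0.254).

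The gain lay in the 4 leading genes, each in 1 mouse. Ighv9-3 was at 28.6, 72.2, 71.6 and 19.9 CPM in the Eµ-TCL1 libraries (3 months, then 6 months), at 37.2, 27.4 and 28.04 CPM in the 3-month Eµ-PRMT5/TCL1 mice, and at 4414 and 11.1 CPM at 6 months. It was therefore highest in replicate 1 and lowest of all libraries in replicate 2. Ighv1-53 followed the same pattern, with 19.4 to 45.5 CPM in the 7 other libraries, 949 CPM in replicate 1 and 12.9 CPM in replicate 2.

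Ighv1-74 was at 241 CPM in replicate 1 and 10.98 CPM in replicate 2 of the 3-month Eµ-TCL1 mice, at 3.09 to 7.79 CPM in the other 5 libraries, and at 1.64 and 2258 CPM in the 6-month Eµ-PRMT5/TCL1 libraries. Ighv5-2 was at 1.44 to 2.70 CPM in the 7 other libraries and at 0.788 and 135 CPM in the 6-month Eµ-PRMT5/TCL1 libraries. In both cases replicate 2 was the highest and replicate 1 the lowest of all 9 libraries.

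**Figure D3:**
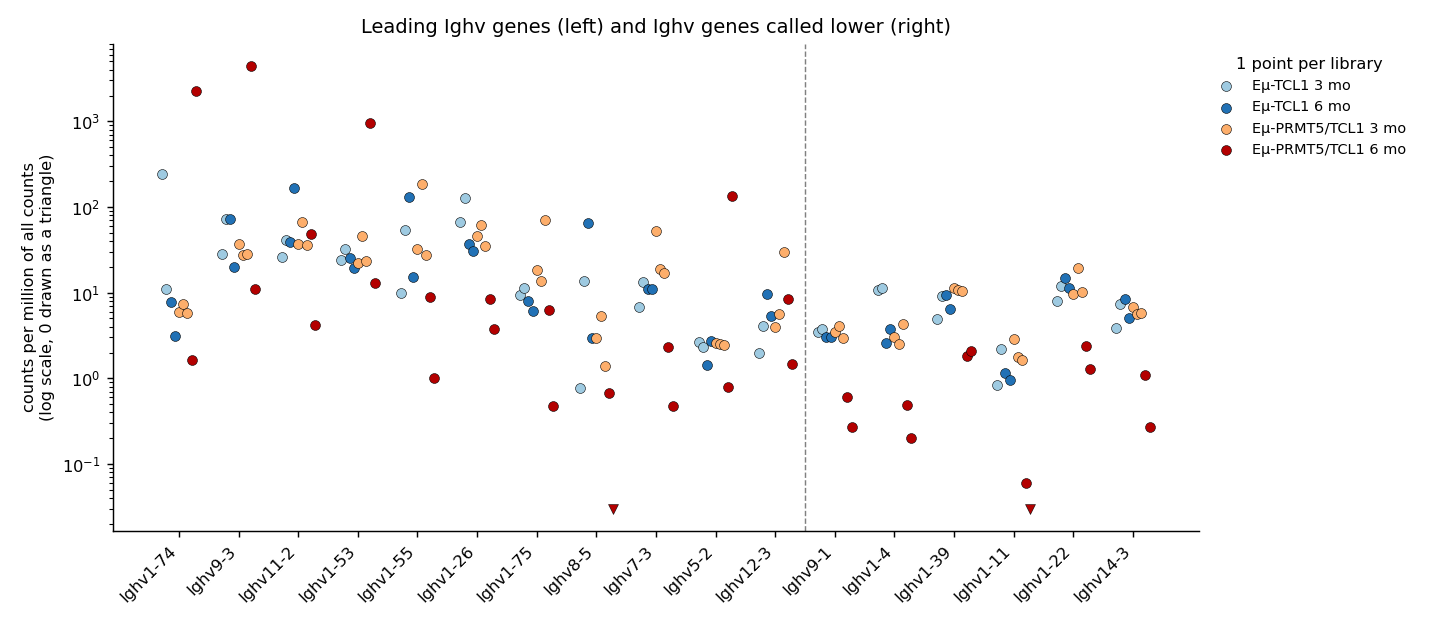
CPM (log axis) of single Ighv genes in each library, marked by genotype and age. The left panel holds the 10 genes with at least 5% of any library and Ighv12-3, with Ighv9-3 at 4414 and Ighv1-74 at 2258 CPM in a single 6-month Eµ-PRMT5/TCL1 library each, and the right panel holds the most clearly lower genes, such as Ighv9-1, for which both 6-month Eµ-PRMT5/TCL1 libraries lie below the 7 others.

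The leaders differed between mice, and their group means did not pass the test. From 3 to 6 months in Eµ-PRMT5/TCL1 mice the log2 fold change was 6.36 ± 2.04 (SE) for Ighv9-3 with an adjusted p of 0.0774, and 7.66 ± 2.6 for Ighv1-74 with 0.0892 (edgeR quasi-likelihood test, Benjamini-Hochberg). Ighv5-2 gave 4.95 ± 1.62 with 0.0805 and Ighv1-53 gave 4.17 ± 1.45 with 0.0948. DESeq2 called all 4 higher, with adjusted p between 0.000725 and 0.0106. The sign of each rested on 1 mouse. Without replicate 1 the log2 fold change was -1.27 for Ighv9-3 and -1.03 for Ighv1-53, and without replicate 2 it was -1.75 for Ighv1-74 and -1.46 for Ighv5-2.

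Below the leaders, many V genes were lower in 6-month than in 3-month Eµ-PRMT5/TCL1 mice, and 88 of the 97 tested had a log2 fold change below 0. Of the 185 Ighv genes, 97 passed the filter on low counts (93 functional genes and 4 pseudogenes) and 88 did not. Among the 97, 41 were lower and 0 higher at 6 months (edgeR adjusted p under 0.05), against 10.4% of all 18795 tested genes called lower, 12.1% higher and 22.5% either way. At an unadjusted p under 0.05, 68 Ighv genes passed. The median log2 fold change was -2.31 over the tested Ighv genes and -0.02 over all genes. Each fit without a library applied the low-count filter anew, so the genes tested could differ from the 97. Without replicate 2 of the 6-month mice, which left 1 library in the group, some V genes had log2 fold changes well above 0. Among them were Ighv9-3 (7.36), Ighv1-53 (5.16), Ighv1-61 (2.55), Ighv9-4 (2.08) and Ighv10-3 (1.85). Ighv1-62, which is not among the 97, was tested there as well (2.45). Without replicate 1, again with 1 library left, the log2 fold change was 8.67 for Ighv1-74 and 5.96 for Ighv5-2. Without replicate 3 of the 3-month mice 26 passed, all lower. DESeq2 called 62 lower and 4 higher.

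By adjusted p the lower genes were led by Ighv9-1, Ighv1-4, Ighv1-39, Ighv1-11 and Ighv1-22, all annotated as functional V genes. Ighv9-1 was at 3.44, 3.73, 3.06 and 3.02 CPM in Eµ-TCL1 mice (3 months, then 6 months), at 3.45, 4.06 and 2.94 CPM in 3-month Eµ-PRMT5/TCL1 mice, and at 0.607 and 0.271 CPM at 6 months. All 7 other libraries lay within a narrow band and both 6-month Eµ-PRMT5/TCL1 libraries far below it, where the levels of Ighv9-1 rest on few counts. Its log2 fold change between the ages was -2.76 ± 0.37 (SE, adjusted p = 0.00199).

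Ighv1-39 was at 4.89 to 11.5 CPM in the 7 other libraries and at 1.82 and 2.10 CPM in the 6-month Eµ-PRMT5/TCL1 libraries, and Ighv1-22 was at 8.10 to 19.5 CPM against 2.37 and 1.29 CPM. The groups did not overlap for either gene. Their log2 fold changes in Eµ-PRMT5/TCL1 were -2.28 ± 0.33 (adjusted p = 0.00271) and -2.65 ± 0.44 (0.00543).

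Ighv1-11 was rare throughout, at 0.840 to 2.89 CPM in the 7 other libraries and 0.0607 and 0 CPM in the 6-month Eµ-PRMT5/TCL1 libraries, and its fitted log2 fold change of -5.53 ± 0.87 (adjusted p = 0.00386) depends on the prior count. Ighv1-4 stood apart in another way. It was at 10.8 and 11.5 CPM in 3-month Eµ-TCL1 mice, at 2.51 to 4.33 CPM in the 5 libraries of 6-month Eµ-TCL1 and 3-month Eµ-PRMT5/TCL1 mice, and at 0.485 and 0.203 CPM in 6-month Eµ-PRMT5/TCL1 mice. The 6-month Eµ-PRMT5/TCL1 levels of Ighv1-4 rest on few counts. Its log2 fold change in Eµ-PRMT5/TCL1 was -3.01 ± 0.43 (adjusted p = 0.00249).

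Among the genes that led other libraries, Ighv1-26 fell by 2.79 ± 0.49 on the log2 scale (adjusted p = 0.0104) and Ighv7-3 fell by 4.17 ± 0.84 (0.0170). Ighv1-26, a commonly used gene here, was at 30.4 to 129 CPM in the 7 other libraries and at 8.37 and 3.72 CPM in the 6-month Eµ-PRMT5/TCL1 libraries. Ighv7-3 was at 6.87 to 52.2 CPM against 2.31 and 0.474 CPM. Without replicate 2 of the 6-month mice the call of Ighv7-3 was lost (adjusted p = 0.0770).

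Against Eµ-TCL1 mice of the same age, 20 of the 97 Ighv genes were lower and 0 higher in 6-month Eµ-PRMT5/TCL1 mice, beside 5.39% of all genes lower, 6.40% higher and 11.8% either way. The median log2 fold change was -1.91 over the Ighv genes and -0.01 over all genes. The genes with the smallest adjusted p were Ighv9-1 (-2.61 ± 0.38, adjusted p = 0.00475), Ighv1-4 (-3.0 ± 0.45, 0.00490), Ighv1-22 (-2.69 ± 0.46, 0.00931), Ighv1-39 (-1.88 ± 0.35, 0.0104) and Ighv14-3 (-3.13 ± 0.57, 0.0105). The comparison uses the same 6-month Eµ-PRMT5/TCL1 libraries as the comparison of ages, so the 2 lists are not independent. Genotype and sex, by the Y-linked counts, cannot be told apart in it. In a fit to the 2 groups alone 0 Ighv genes passed, with 39 at an unadjusted p under 0.05. Without the third 3-month Eµ-PRMT5/TCL1 mouse 13 passed. Without the first 6-month Eµ-PRMT5/TCL1 mouse, which left 1 in its group, the log2 fold change was 8.83 for Ighv1-74 and 6.19 for Ighv5-2. Without the second, again with 1 left, it was 6.73 for Ighv9-3 and 5.54 for Ighv1-53. The genes away from 0 in these fits thus lay on both sides.

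No Ighv gene passed between 6 and 3 months in Eµ-TCL1 mice in edgeR (0 of 97, where 0% of all genes passed), and 10 had an unadjusted p under 0.05. At 3 months 0 of 97 passed between the genotypes (0% of all genes), with 5 at an unadjusted p under 0.05. DESeq2 called 1 gene in each, Ighv1-4, which was lower by a log2 fold change of -1.76 in both cases (adjusted p = 0.0112 and 0.0303). Both comparisons share the 3-month Eµ-TCL1 libraries, in which Ighv1-4 was highest. The median log2 fold change over the tested Ighv genes was -0.33 with age in Eµ-TCL1 and 0.00 between the genotypes at 3 months, and with 2 or 3 mice a group a missed threshold does not show that the repertoires were alike.

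By the interaction term (edgeR adjusted p under 0.05), 1.78% of all genes had a negative interaction, 2.19% a positive and 3.96% either way. The effect of age depended on the genotype for 6 Ighv genes, all with a more negative change in Eµ-PRMT5/TCL1. They were Ighv1-39, Ighv9-1, Ighv1-22, Ighv1-34, Ighv1-11 and Ighv14-3. For Ighv1-39 the log2 fold change was -2.28 in Eµ-PRMT5/TCL1 and 0.23 in Eµ-TCL1, and for Ighv9-1 it was -2.76 and -0.18. No interaction passed when replicate 1 of either age of Eµ-TCL1, or replicate 1 or 3 of the 3-month Eµ-PRMT5/TCL1 mice, was left out (20 to 33 genes at an unadjusted p under 0.05). Without the second 3-month Eµ-PRMT5/TCL1 mouse 3 passed. Without the first 6-month Eµ-PRMT5/TCL1 mouse, which left 1 in its group, the interaction was positive for Ighv5-2 (6.18) and Ighv1-74 (13.1).

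Each 6-month Eµ-PRMT5/TCL1 mouse was also set against the range of the 7 other libraries. In replicate 1, 73 of the 97 tested Ighv genes lay below that range and 7 above it (Ighv9-3, Ighv1-53, Ighv1-61, Ighv10-3, Ighv9-4, Ighv7-1 and Ighv3-5), where 37.3% and 15.6% of all genes did. In replicate 2, 90 lay below and 2 above (Ighv1-74 and Ighv5-2), where 38.7% and 17.6% of all genes did. In both mice at once, 68 Ighv genes lay below and 0 above, where 24.2% and 9.86% of all genes did.

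Position in the locus was compared in 3 blocks of nearly equal gene number, counted from the D-proximal end, because V genes near the D segments are used more often early in B cell development. The D-proximal block reached 741 kb from the first V gene, and 62, 62 and 61 genes fell into the D-proximal, middle and distal blocks. Lower calls in Eµ-PRMT5/TCL1 with age came from each, with 10 of 35 tested genes in the D-proximal block, 17 of 28 in the middle and 14 of 34 in the distal block. Over all tested genes 10.4% were called lower in that comparison. Ighv9-3 and Ighv5-2 lie in the D-proximal block and Ighv1-53 and Ighv1-74 in the distal block. With every gene of at least 5% taken out, the D-proximal block held 41.1% and 29.6% of the remaining counts in the 6-month Eµ-PRMT5/TCL1 libraries (33.9 to 38.9% in the others) and the distal block 37.7% and 49.0% (33.1 to 41.3%), so the 2 mice left the range of the others on opposite sides for the D-proximal block.

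**Figure D4:**
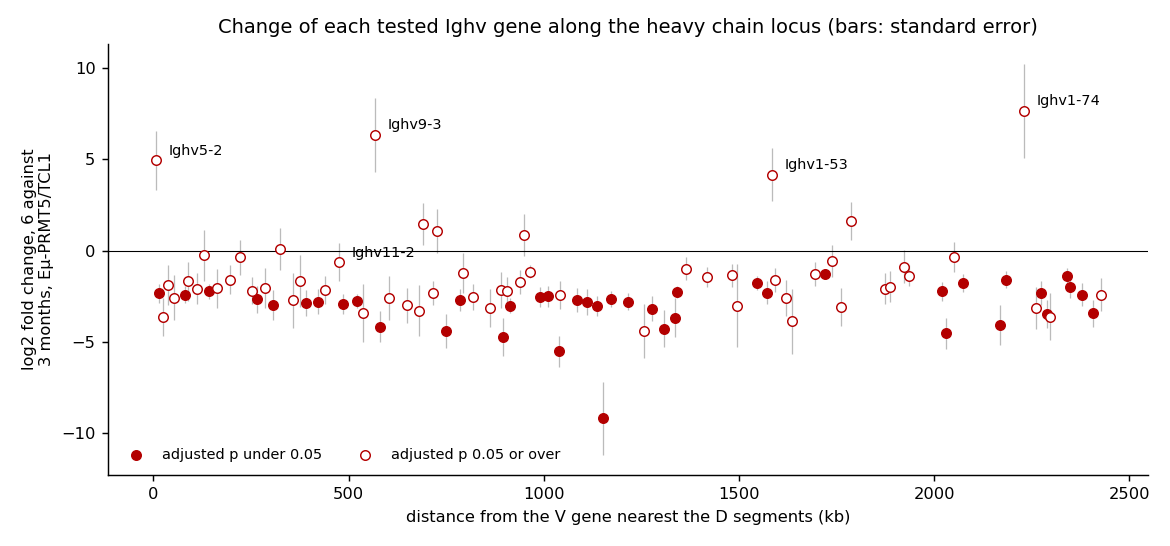
Log2 fold change of each tested Ighv gene from 3 to 6 months in Eµ-PRMT5/TCL1 against its distance from the D-proximal end of the V genes (kb), with the 41 called genes marked. The called genes all lie below 0 and occur in the D-proximal, middle and distal blocks, and the genes above 0 include Ighv9-3, Ighv1-74, Ighv5-2 and Ighv1-53.

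By family, the largest share in each 6-month Eµ-PRMT5/TCL1 mouse was that of its leading gene's family. Ighv1, the largest family with 93 members, held 39.0 to 67.8% of the Ighv counts in the 7 other libraries and 19.3% and 92.7% in the 6-month Eµ-PRMT5/TCL1 libraries. Ighv9 held 3.52 to 8.05% in the others and 77.4% and 0.461%. Ighv5 held 6.08 to 10.7% in the others and 0.606% and 5.47%. None of the 15 families with counts passed between 6 and 3 months (smallest adjusted p 0.417 over all Ighv counts and 0.556 below the largest gene, exact permutation tests).

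Over all tested genes 10.4% were called lower with age in Eµ-PRMT5/TCL1, and no tested gene of Ighv4, Ighv6, Ighv10, Ighv11 or Ighv12 was. Lower calls among the Ighv genes covered 10 families. They comprised 26 of 49 tested Ighv1 genes, 4 of 8 Ighv2 genes, 2 of 5 Ighv3 genes, 2 of 5 Ighv8 genes, 2 of 4 Ighv14 genes, 1 of 9 Ighv5 genes, 1 of 4 Ighv9 genes, 1 of 3 Ighv7 genes and the only tested gene of Ighv13 and of Ighv15.

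**Figure D5:**
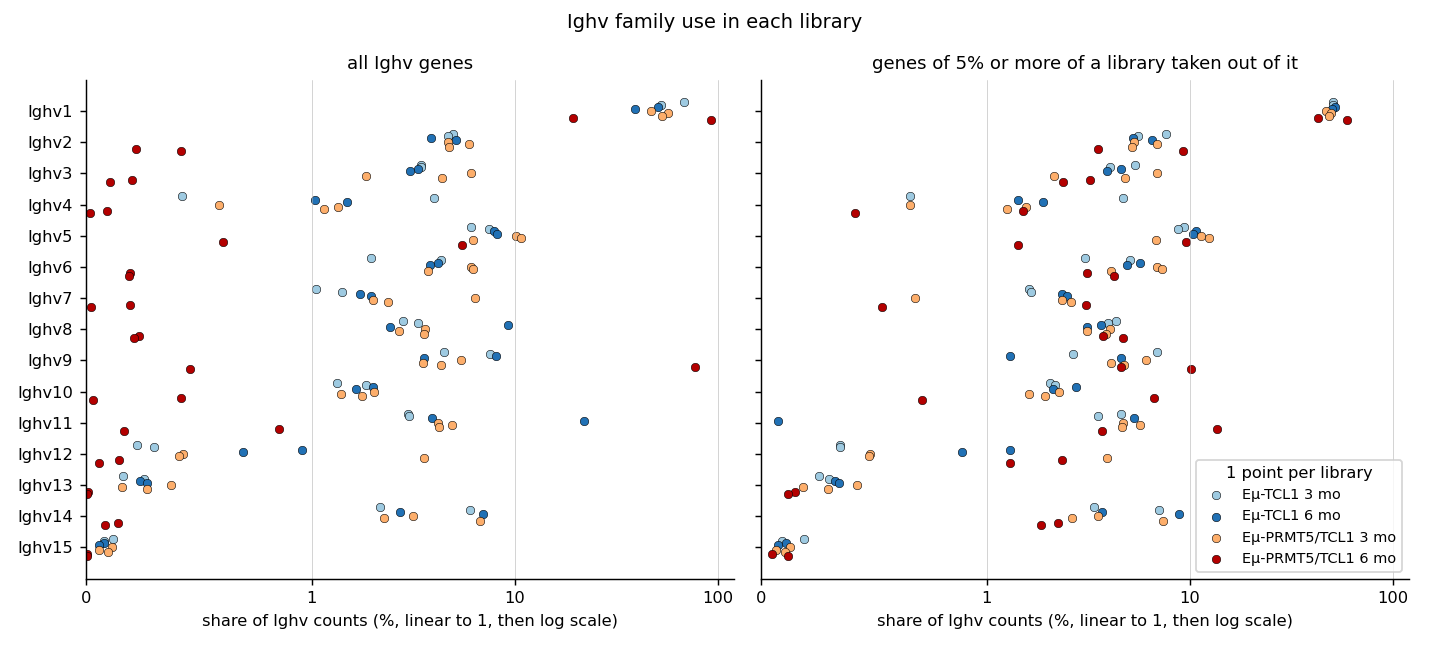
Share of the Ighv counts (percent) by V family in each library, over all Ighv genes and after taking out every gene of at least 5%. Ighv9 at 77.4% and Ighv1 at 92.7% mark the 6-month Eµ-PRMT5/TCL1 libraries, and with the large genes taken out Ighv1 holds 42.7% and 59.1% there against 46.8 to 51.6% in the 7 others.

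Ighv11-2, a gene known from phosphatidylcholine-binding receptors, led only 1 library. Its share of the Ighv counts was 2.97% and 2.99% in 3-month Eµ-TCL1 mice, 3.88% and 21.7% at 6 months, 4.10%, 4.87% and 4.21% in 3-month Eµ-PRMT5/TCL1 mice, and 0.853% and 0.167% at 6 months. The second 6-month Eµ-TCL1 mouse stood above all others and both 6-month Eµ-PRMT5/TCL1 mice below. By level, Ighv11-2 was at 165 CPM in the former and at 48.8 and 4.19 CPM in the latter, against 26.0 to 67.3 CPM in the other 6 libraries. The lower share in replicate 1 of the 6-month Eµ-PRMT5/TCL1 mice thus went with a level within the range of the others.

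The change with age did not pass the test for Ighv11-2 in either genotype. The log2 fold change with age was 1.65 ± 1.15 (SE, adjusted p = 0.632) in Eµ-TCL1 and -0.63 ± 1.05 (0.705) in Eµ-PRMT5/TCL1. Without replicate 2 of the 6-month mice the latter was 0.26. Ighv11-1 held at most 0.0704% of the Ighv counts in any library, although only 4 bases separate it from Ighv11-2.

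Ighv12-3, which is likewise known from phosphatidylcholine-binding receptors, was the only Ighv12 gene with counts, and the pseudogenes Ighv12-1 and Ighv12-2 were at 0. It held 3.56% in replicate 3 of the 3-month Eµ-PRMT5/TCL1 mice, 0.227 to 0.956% in the other libraries of the 7, and 0.147% and 0.0594% in the 6-month Eµ-PRMT5/TCL1 mice. Its log2 fold change with age was 1.34 ± 1.24 (adjusted p = 0.716) in Eµ-TCL1 and -1.21 with an adjusted p of 0.474 in Eµ-PRMT5/TCL1, where it was 0.25 without replicate 3 of the 3-month mice. Together the 2 families made 7.14 ± 10.4% (SD, n = 4) at 6 months and 4.85 ± 1.88% (n = 5) at 3 months (two-sided exact permutation p = 0.841). Without the second 6-month Eµ-TCL1 mouse the difference of 2.30 percentage points turned to -2.82.

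The repertoire below the largest gene was uneven in the 6-month Eµ-PRMT5/TCL1 libraries too. Pielou evenness, which is 1 when all detected genes are used equally, was 0.346 and 0.510 there once the largest gene was taken out, against 0.827 to 0.856 in the 7 others. The means were 0.428 ± 0.116 (SD, n = 2) and 0.845 ± 0.0106 (n = 7), with an exact permutation p of 0.0556, the smallest that this design allows. By age the means were 0.633 ± 0.246 (n = 4) and 0.848 ± 0.00899 (n = 5, two-sided exact permutation p = 0.0476). That call was lost with the repertoires thinned to equal counts (exact permutation p = 0.0635) and when any 1 library except that of the second 6-month Eµ-TCL1 mouse was left out (p up to 0.107).

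Much of this unevenness lay in the second gene. With every gene of at least 5% taken out, evenness was 0.804 and 0.786 in the 6-month Eµ-PRMT5/TCL1 libraries and 0.834 to 0.868 in the others, and the effective number was 44.0 and 35.2 against 58.3 to 66.4. The values of both mice stayed below the range of the others, by far less than with all genes. By age the difference in evenness was then -0.0317 with an exact permutation p of 0.111. The largest gene of what remained was Ighv11-2 with 13.5% in replicate 1 and Ighv1-53 with 11.3% in replicate 2, while no gene exceeded 6.26% in the 7 others. Ighv1-53 shares 93.8% of its bases with Ighv1-74, the leading gene of replicate 2. Exchange of counts between these genes was not tested.

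The level of this remainder was also lower. It made 361 and 114 CPM in the 6-month Eµ-PRMT5/TCL1 libraries and 568 to 1193.5 CPM in the 7 others, without overlap. With just the largest gene taken out the values were 1311 and 249 CPM against 593 to 1238.5, so in replicate 1 the second gene, Ighv1-53, made up most of the counts below the largest.

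Some of the next genes below the largest recurred in several of the 7 other libraries. Ighv1-26 was among the 3 largest remaining genes in 5 of the 7 other libraries, and Ighv11-2 in 4 and Ighv9-3 in 3 of them. Single libraries added Ighv4-1 (54.0 CPM), Ighv1-55 (53.7 CPM), Ighv8-5 (65.7 CPM), Ighv14-1 (37.2 CPM), Ighv3-6 (44.5 CPM), Ighv6-3 (44.4 CPM) and Ighv1-9 (35.97 CPM), and Ighv1-78 was among the 3 in one library of each genotype (30.1 and 63.7 CPM). Ighv8-5 reached its 65.7 CPM in the first 6-month Eµ-TCL1 mouse and lay at 0 to 13.5 CPM elsewhere, so large single genes also occurred outside the 6-month Eµ-PRMT5/TCL1 mice, at lower levels.

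The minor genes were compared between mice over the 137 members that stayed under 5% in every library and had a count in at least 1 of the 3-month libraries. Spearman's rho between a library and the mean of the 3-month libraries, itself left out, was 0.933 to 0.949 in the 7 others and 0.884 and 0.829 in the 6-month Eµ-PRMT5/TCL1 libraries, over 137 genes. Pearson's r was 0.733 to 0.892 against 0.442 and 0.660. These are descriptions across genes, which are not independent replicates, and the 6-month Eµ-PRMT5/TCL1 values rest on 4676 and 1183 counts, against 6015 to 13494 in the others.

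Some of these minor genes were raised in replicate 1 of the 6-month Eµ-PRMT5/TCL1 mice. Ighv1-61 was at 34.1 CPM (3.97 to 10.3 in the 3-month libraries), Ighv10-3 at 20.4 CPM (4.25 to 8.34) and Ighv9-4 at 14.9 CPM (2.45 to 6.50). Ighv9-4 shares 91.7% of its bases with the leading gene Ighv9-3, whereas Ighv1-61 shares 66.7% and Ighv10-3 64.0%. These identities are to the leading gene only. The second gene of that library belongs, like Ighv1-61, to the Ighv1 family. Exchange of counts between it and the raised genes was not tested. In replicate 2 the 5 minor genes with the largest rise in share, led by Ighv1-80 at 14.5% of the minor genes' counts, were all below their 3-month range by level (Ighv1-80 11.6 CPM against 18.5 to 30.5).

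Near-identical V genes can exchange counts, so the leaders were also compared with their neighbours. Among 180 members with a transcript sequence, 80 had another member at 95% identity or more, and the median identity to the nearest member was 94.1%. The nearest neighbour of Ighv9-3, Ighv9-2, held 0.0170% of the counts in the library that Ighv9-3 led, and the neighbour of Ighv1-74, Ighv1-69, held 0.0540% in the library that Ighv1-74 led. Members were also joined into sets wherever a chain of pairs at 95% identity or more linked them, so that a set can hold genes less like its leader. Summing each leader's set left Ighv9-3, the only gene of its set, at 77.1% and Ighv1-74, in a set of 4, at 90.2%. In the 7 other libraries the same sum gave 5.73 to 29.9%. The set of Ighv1-55 held 6 genes and moved its libraries from 12.9% to 19.6% and from 13.6% to 20.3%, although only 1 of them, the pseudogene Ighv1-62 (96.6%), was at 95% identity or more to Ighv1-55 itself. For Ighv1-26 the nearest gene was Ighv1-18 (97.2%), for Ighv1-75 it was Ighv1-84 (96.2%) and for Ighv7-3 it was Ighv7-2 (94.8%), which had no counts.

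Among the constant regions, Ighm was higher and Ighd lower in the 6-month Eµ-PRMT5/TCL1 mice. Ighm, which encodes the heavy chain of IgM, was at 2891 to 5045 CPM in the 7 other libraries and at 20486 and 17267 CPM in the 6-month Eµ-PRMT5/TCL1 libraries. It rose with age in Eµ-PRMT5/TCL1 by a log2 fold change of 2.53 ± 0.27 (SE, adjusted p = 0.00129). Ighd, the IgD heavy chain of mature naive B cells, was at 193 to 490 CPM against 65.0 and 84.6 CPM and fell by 2.14 ± 0.24 (0.00143). Both differed from 6-month Eµ-TCL1 mice as well, with log2 fold changes of 2.65 ± 0.31 (0.00294) and -1.43 ± 0.25 (0.0102). The effect of age depended on the genotype for both (interaction 2.84 ± 0.40 for Ighm, adjusted p = 0.0169, and -1.73 ± 0.33 for Ighd, 0.0330).

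Ighg2b and Ighg2c split the 2 mice. Ighg2b was at 143 to 772 CPM in the 7 others and at 2580 and 25.8 CPM in replicates 1 and 2 of the 6-month Eµ-PRMT5/TCL1 mice, and Ighg2c was at 87.1 to 319 CPM against 1570 and 55.1 CPM. Replicate 1 was the highest and replicate 2 the lowest of all libraries for both, and neither passed with age (adjusted p = 0.441 and 0.302). Igha was below the 7 others in both mice, at 185 and 41.3 CPM against 190 to 776 CPM, and did not pass with age (adjusted p = 0.187). Ighg3 was lowest in replicate 1 (3.09 CPM) and within the range of the others in replicate 2 (20.2 CPM, others 7.19 to 164), and Ighg1 was within the range in replicate 1 (16.3 CPM, others 4.58 to 125) and lowest in replicate 2 (1.15 CPM). Ighm made 82.3% and 98.7% of the constant region counts in these mice and 62.0 to 79.3% in the others. Whether the V gene of a transcript was joined to Ighm or to a switched isotype is not held in counts per gene.

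Relative to the constant regions, the 2 mice lay on either side of the others. The Ighv counts were 23.0% and 14.3% of the constant region counts in the 6-month Eµ-PRMT5/TCL1 libraries and 16.9 to 20.2% in the others. The summed constant region level ran from 4207 to 7087 CPM in the 7 others and reached 24906 and 17496 CPM in the 6-month Eµ-PRMT5/TCL1 libraries.

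Of 22 genes on a list of heavy chain genes and their partners, 19 were tested, and 3 were higher and 2 lower with age in Eµ-PRMT5/TCL1. Beside Ighm and Ighd these were Cd79b, a signalling subunit of the B cell receptor (0.72 ± 0.16, adjusted p = 0.0143), Pou2af1, a co-activator of immunoglobulin transcription (0.95 ± 0.10, 0.00106), and Dntt, the terminal transferase that adds bases at V(D)J joints (-1.85 ± 0.42, 0.0158). At 6 months 4 were higher and 2 lower than in Eµ-TCL1, with Pou2f2, an octamer-binding factor of B cells, added to the higher ones (0.82 ± 0.20, 0.0304). Pou2f2 nevertheless lay within the range of the 7 others (68.8 and 64.7 CPM against 32.7 to 77.1 CPM). With age in Eµ-TCL1 and between the genotypes at 3 months 0 of 19 passed. The share of all genes passing was 22.5%, 11.8%, 0% and 0% in these comparisons.

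Some markers of other B cell types and of T and NK cells changed in the same mice, whereas no myeloid marker passed. With age in Eµ-PRMT5/TCL1, where 12.1% of all genes were called higher and 10.4% lower, 4 of 7 plasma cell markers were higher. All 7 summed to 1555 and 1469 CPM in the 6-month Eµ-PRMT5/TCL1 libraries and 720 to 1431 CPM in the others. Jchain, the joining chain of secreted IgM and IgA, was within the range of the others, at 448 and 452 CPM against 312 to 910 CPM. So were Sdc1 (17.4 and 16.3 CPM against 6.95 to 20.4 CPM) and Tnfrsf17 (1.82 and 2.57 CPM against 1.03 to 2.78 CPM). Markers of B-1 and CLL-like cells summed to 575 and 589 CPM against 420 to 505 CPM, with 4 of 6 higher with age (Zbtb32, Cd9, Bhlhe41 and Ctla4). Ctla4 nevertheless lay within the range of the 7 others (27.8 and 37.1 CPM against 21.5 to 42.8 CPM). Of this list, Cd5 (39.9 and 50.1 CPM against 58.6 to 90.5 CPM) and Spn (215 and 191 CPM against 280 to 344 CPM) lay below the 7 others. Against 6-month Eµ-TCL1 mice 2 of the 6 were higher (Zbtb32 and Bhlhe41) and 2 lower (Cd5 and Spn), where 6.40% and 5.39% of all genes were called.

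Markers of follicular and marginal zone B cells summed to 669 and 452 CPM against 1757 to 2228 CPM, with 4 of 5 lower with age. All 6 T cell markers were lower, and 2 of 3 NK cell markers, which summed to 40.9 and 41.0 CPM against 65.3 to 132 CPM. Myeloid markers summed to 8208 and 991 CPM against 1956 to 14262 CPM and red cell markers to 7.22 and 13.8 CPM against 4.98 to 13.4 CPM, with Hbb-bs at 0 in every library, and 0 of 6 myeloid markers passed. Their part in the lower V gene levels was not tested.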

How the data were processed

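Total RNA of pan-B selected spleen cells was made into stranded mRNA libraries and sequenced as read pairs. Per the submitters' processing notes and the file headers, the authors trimmed reads with cutadapt, aligned them with STAR 2.6.0c to GRCm38 and deposited counts of fragments per Ensembl gene from featureCounts v1.4.6-p5. The headers give primary alignments and paired fragments with no strand option, so overlapping genes on opposite strands share counts, and near-identical V genes can exchange them. The human transgenes were not counted. The sum over the B cell list is not reported here.

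Gene identifiers (54809 of 54838) were matched to GENCODE vM21. Shares were taken of the summed Ighv counts and CPM of all counts. Totals were 12233230 to 17330246 counts a library and 10392 to 94389 Ighv counts. Wilson intervals (95%) and the limit for a gene with no count, 3 counts or 0.00318 to 0.0289% of the Ighv counts, cover counting error only. Diversity was compared by two-sided exact permutation tests over libraries (Python 3.11.15, scipy 1.17.1), and sequences were aligned with biopython 1.88. Genes were tested with the edgeR 4.0.16 quasi-likelihood test (R 4.3.3, TMM, filterByExpr, 1 fit to all 4 groups, Benjamini-Hochberg over 18795 genes, threshold 0.05). The study's methods name DESeq2, and DESeq2 1.42.0 was an alternative. The scripts were tested on simulated data.

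Alternatives were other size factors, no low-count filter, no immunoglobulin genes in the scaling, only the groups compared, a replicate block, each library left out, functional genes only, counts per length, thinning to equal counts and merging of near-identical genes. Named genes were those with at least 5% of any library, all Ighv11 and Ighv12 genes, up to 5 higher and 5 lower called genes a comparison by adjusted p, the 3 largest genes below each library's largest, the nearest gene of each leader and the heavy chain list. Ighv1-34, the genes outside the range of the other libraries and the minor genes raised in 1 mouse were added after their values were seen. Members and lists were chosen with earlier results of these data known. P-values measure the spread between mice of these groups.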

Additional observations from a re-analysis of the deposited data

Results flagged for a closer look

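The change from 3 to 6 months differed between the genotypes for 6 Ighv genes by the interaction term of the edgeR fit (Benjamini-Hochberg over all genes). The log2 change in Eµ-PRMT5/TCL1 less that in Eµ-TCL1 was -2.51 ± 0.46 (SE) for Ighv1-39 (adjusted p = 0.0256), -2.58 ± 0.48 for Ighv9-1 (0.0280), -3.09 ± 0.60 for Ighv1-22 (0.0327), -4.17 ± 0.90 for Ighv1-34 (0.0409), -5.06 ± 1.11 for Ighv1-11 (0.0421) and -3.22 ± 0.72 for Ighv14-3 (0.0470). In Eµ-PRMT5/TCL1 alone the changes were -2.28, -2.76, -2.65, -3.18, -5.53 and -2.92, and in Eµ-TCL1 they were 0.23, -0.18, 0.44, 0.99, -0.47 and 0.30. Each 6-month Eµ-PRMT5/TCL1 library was below every other library for all 6 genes. The calls were not stable. With 1 library left out 0 to 23 Ighv genes passed, with a replicate block 0, and with DESeq2 21. Age goes with depth in all mice and with the Y-linked counts in Eµ-TCL1. At 6 months genotype goes with the Y-linked counts as well. The part of depth and sex in the difference was not tested. Groups held 2 or 3 mice, too few to mark a single library as apart from its group.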

How the results depend on the processing

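The effective number of genes and the evenness below the largest gene stayed lower in 6-month Eµ-PRMT5/TCL1 mice than in the 7 others under every alternative, with differences of -51.2 to -46.8 genes and -0.499 to -0.335 when 1 library was left out. By age, the difference in effective number ran from -37.2 to -21.1. The difference in evenness by age lost its call with thinned counts (-0.207), with the 2 largest genes taken out (-0.0346) and with every gene of at least 5% taken out (-0.0317), and ran from -0.287 to -0.119 when 1 library was left out. The Ighv11 and Ighv12 difference ran from -2.82 to 4.60 percentage points, and the family tests called 0 throughout. The cause of these moves was not tested.

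For the fall with age in Eµ-PRMT5/TCL1 (41 genes), DESeq2 called 66 and the fits without 1 library 25 to 45. For 6-month Eµ-PRMT5/TCL1 against Eµ-TCL1 (20 genes), DESeq2 called 45, the fit to the 2 groups alone 0 and the fits without 1 library 7 to 32. For age in Eµ-TCL1 (0 genes), DESeq2 called 1 and the fits without 1 library 0 to 1, and at 3 months (0 genes) DESeq2 called 1 and the fits without 1 library 0. For the interaction (6 genes), DESeq2 called 21 and the fits without 1 library 0 to 23. Other size factors kept these counts within 1.5 times. Where a group was left with 1 library, that library was assumed to vary like the other groups. The low-count filter was applied anew in each fit without a library, so the genes tested could differ between these fits.

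Replicate numbers in the labels only name the mice. Same-numbered libraries deviated together from their group means at 3 months (r of 0.19 and 0.16 over all genes, 0.24 and 0.31 over Ighv genes, 2 pairs). The 2 pairs are not independent, because the deviations of 2 Eµ-TCL1 libraries from their mean mirror each other. In the other comparisons same-numbered libraries did not deviate together (r from -0.23 to 0.03 over all genes and -0.14 to 0.06 over Ighv genes). With a replicate block the counts were 10, 5 and 0 for the fall with age, the 6-month comparison and the interaction, and 0 for the other comparisons. A crossed replicate block in Eµ-TCL1, added after the data were seen, called 0. Ighv12-3 with age in Eµ-PRMT5/TCL1 turned to 0.0724 under the replicate block.

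The sign of single genes turned when 1 library was left out. With age in Eµ-PRMT5/TCL1 the log2 fold change ran from -1.27 to 7.36 for Ighv9-3, -1.03 to 5.16 for Ighv1-53, -1.75 to 8.67 for Ighv1-74, -1.46 to 5.96 for Ighv5-2, -3.28 to 0.26 for Ighv11-2 and -2.93 to 0.25 for Ighv12-3. Against Eµ-TCL1 at 6 months it ran from -1.90 to 6.93 for Ighv9-3, -0.66 to 5.54 for Ighv1-53, -1.59 to 8.83 for Ighv1-74, -1.23 to 6.19 for Ighv5-2 and -2.17 to 0.32 for Ighv12-3. Of 581 single-gene values under all alternatives, 492 kept their direction and side of the threshold, 55 lost the call, 21 gained one and 13 changed sign.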
